A study of Mus musculus with 18 samples.

Results

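A pair of ways of bringing alginate oligosaccharide (AOS) to streptozotocin (STZ) mice were set against each other in whole testis: AOS given to the mice themselves, and a faecal microbiota transplant (FMT) tied to AOS. The comparison was formed by treatment label and held 6 of the 18 libraries of the series, 3 per group. It covered 14164 of the 20985 genes in the table, the filter being a value of 1 or more in 3 or more libraries of the 18. All mice were ICR, an outbred strain, and 10 weeks old. The STZ+AOS group received streptozotocin, a toxin of pancreatic beta cells used to make mice diabetic, and AOS at 10 mg/kg. The STZ+AOS-FMT group received streptozotocin and a transplant labelled AOS10mg/kg-FMT, read here as material from donors dosed with AOS at 10 mg/kg. The groups used beside them, also of 3 libraries each, were STZ+control-FMT, STZ alone, AOS alone at 10 mg/kg, and control. The labels do not describe the donors, the way or length of dosing, the blood glucose of the mice or the treatment of the controls. They also do not state that libraries of a group are from different animals, and each p-value below therefore reflects only the spread between samples, which may be technical.

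The testis makes sperm in tubules lined by Sertoli cells, which nurse the germ cells through meiosis and spermatid elongation, when transition proteins and then protamines replace histones on the DNA. Leydig cells lie between the tubules and make testosterone from cholesterol. AOS consists of short sugar chains cut from the alginate of brown algae, and a faecal transplant carries gut microbes from a donor to a recipient. The question the labels pose is whether STZ testes look alike after direct dosing and after the transplant.

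The table gives 1 value per gene and library in a unit its header does not name, read here as FPKM, the fragment count divided by transcript length and library size. They summed to between 586486 and 603475 in the STZ+AOS libraries and to between 591561 and 609157 in the STZ+AOS-FMT libraries. Read depth is unknown, so no counting interval was computed. Prm1, Prm2 and the other protamine and transition protein genes, which mark elongating spermatids, took 7.38% ± 0.39 of the summed values in STZ+AOS libraries and 7.94% ± 0.47 in STZ+AOS-FMT libraries (SD, n = 3 each), so the genes that define sperm-forming testis were present. The STZ libraries stood apart, with a share of 4.95% ± 1.5, and STZ replicate 1 differed from the other STZ libraries in the Leydig cell genes described below.

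No gene differed between STZ+AOS and STZ+AOS-FMT testes at a Benjamini-Hochberg adjusted p under 0.05 in limma, of 14164 tested (0% called). The smallest adjusted p was 0.336. At an unadjusted p under 0.05 there were 920 genes (6.5%), of which 580 (4.09%) were higher and 340 (2.4%) were lower in STZ+AOS. Centring each library on its median turned that split to 468 higher and 458 lower. The groups did not overlap in 1228 genes with higher values in STZ+AOS (8.67%) and in 885 with lower values (6.25%).

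The differences were small for most genes, and the intervals say how small. The median difference, STZ+AOS minus STZ+AOS-FMT on the log2(FPKM + 1) scale used throughout, was 0.016, and the median of its absolute value was 0.0727 with a median standard error of 0.0988. The 95% interval of the difference lay within 0.5 of zero for 12220 genes (86.3%) and within 1 of zero for 13805 genes (97.5%). Adding 1 before the logarithm shrinks the differences of genes with low values, so their narrow intervals say little. Of the genes tested, 13179 passed the same filter in the 6 libraries compared. Only 194 genes differed by 0.5 or more, and 28 by 1 or more. The root mean square distance between an STZ+AOS and an STZ+AOS-FMT library was 0.248 on average over 9 pairs (0.222 to 0.283). Pairs within STZ+AOS were 0.236 apart (0.22 to 0.25) and pairs within STZ+AOS-FMT 0.234 apart (0.227 to 0.247), so the distances across and within groups overlapped.

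**Figure D1:**
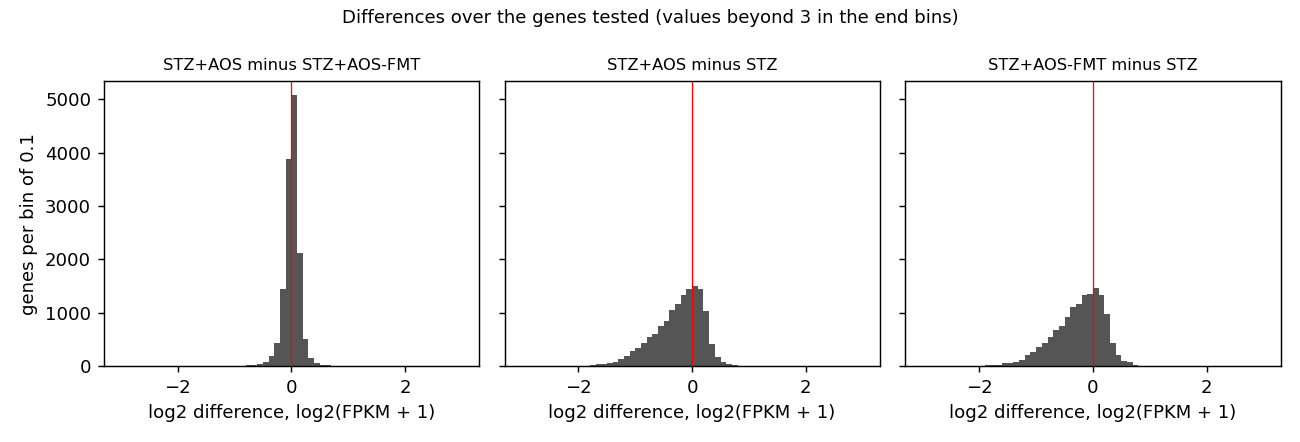
Number of genes per bin of 0.1 in the log2 difference of log2(FPKM + 1), for STZ+AOS minus STZ+AOS-FMT (left), STZ+AOS minus STZ (middle) and STZ+AOS-FMT minus STZ (right), over 14164 genes; the red line marks no difference. The left panel is narrow around its median of 0.016, and the other panels spread to the left, with medians of -0.168 and -0.183.

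Set against STZ alone, both groups differed over much of the transcriptome. These comparisons share the 3 STZ libraries, so their values are given side by side and no overlap is drawn from them. In STZ+AOS, 7786 genes were called (55%), 1680 higher (11.9%) and 6106 lower (43.1%), and in STZ+AOS-FMT 8011 were called (56.6%), 1703 higher (12%) and 6308 lower (44.5%). The direction rested on the scaling. Under quantile normalization the split was 4242 higher and 3108 lower in STZ+AOS, and 4220 higher and 3205 lower in STZ+AOS-FMT. Under median centring it was 6319 higher and 2818 lower in STZ+AOS, and 6350 higher and 2744 lower in STZ+AOS-FMT. The median over all genes of STZ+AOS minus STZ was -0.168 as deposited, 0.074 after quantile normalization and 0.179 after centring; for STZ+AOS-FMT minus STZ it was -0.183, 0.066 and 0.181. Group differences from STZ are best read against those medians. Distances to the STZ libraries ran from 0.38 to 0.666 for STZ+AOS and from 0.427 to 0.657 for STZ+AOS-FMT.

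Against control testes, 6 genes were called in STZ+AOS (0.0424%), 2 higher (0.0141%) and 4 lower (0.0282%), and 0 in STZ+AOS-FMT (0%) in limma, with 1130 and 927 genes at an unadjusted p under 0.05. All 6 are named here after their values were seen, apart from Klk1b24 and Iglon5. Iglon5, a cell adhesion molecule of the immunoglobulin family, and Aplp1, a relative of the amyloid precursor protein, rose in STZ+AOS relative to control (0.69 and 0.88, adjusted p 0.02 and 0.034). Gsta3, a glutathione transferase that also isomerizes steroid intermediates, fell by 1.45 (adjusted p 0.02). The other 3 were tissue kallikreins, taken up below. Leaving out STZ+AOS replicate 2 or control replicate 1 left 0 genes called, and leaving out control replicate 2 left a count of 1. Whether a gene was called in STZ+AOS and not in STZ+AOS-FMT does not show that the groups differ, since none was called between them. Against STZ+control-FMT, 1 gene was called in STZ+AOS (0.00706%): Ckb, a creatine kinase, named after its values were seen, which averaged 2.58 ± 0.361 FPKM in STZ+AOS and 5.8 ± 0.28 FPKM in STZ+control-FMT (SD, n = 3 each; limma adjusted p 0.0264). Its STZ+AOS-FMT mean was 3.57 ± 0.431 FPKM. With a library of either compared group left out, Ckb was called only when that library was STZ+AOS replicate 1. Without STZ+AOS replicate 2 or 3, 0 genes were called, and without any STZ+control-FMT library other genes were called.

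Leydig cell genes formed the group with the lowest median difference among the 32 lists. All 25 listed genes passed the filter over the 18 libraries. Klk1b21, Klk1b27 and Klk1b22 did not pass it when only the 6 libraries compared were used, and the counts here include them. Values were lower in STZ+AOS than in STZ+AOS-FMT for 21 and higher for 4, the median difference was -0.418 against 0.016 over all genes, and none was called. In 12 the groups did not overlap with STZ+AOS lower (6.25% over all genes), and in 1, Pdgfra, named after its values were seen, with STZ+AOS higher (8.67% over all genes). At an unadjusted p under 0.05 there were 3 lower genes (2.4% over all genes), Klk1b24, Klk1b21 and Hsd3b1. In bulk tissue fewer Leydig cells and less RNA per cell cannot be told apart.

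Insl3 encodes the insulin-like peptide that Leydig cells secrete and that drives testis descent before birth. It measured 1938, 1828 and 2198 FPKM in STZ+AOS, against 2896, 3014 and 2755 FPKM in STZ+AOS-FMT. Every STZ+AOS library lay under every STZ+AOS-FMT library, with a difference of -0.54 and a 95% interval from -1.59 to 0.51 (limma adjusted p 0.898). Star brings cholesterol into mitochondria, the first step of steroid synthesis. It measured 18.6, 11 and 23.8 FPKM in STZ+AOS, against 29.7, 31.1 and 24.8 FPKM in STZ+AOS-FMT, without overlap (-0.71 ± 0.40 SE, adjusted p 0.809).

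Hsd3b1, which turns pregnenolone into progesterone, had 44.3, 25.6 and 53.8 FPKM in STZ+AOS, against 86.0, 85.6 and 66.1 FPKM in STZ+AOS-FMT. The groups were apart, and the difference was -0.98 with an interval from -1.79 to -0.17 (unadjusted p 0.0212, limma adjusted p 0.744). Cyp17a1, which forms the androgen precursors, had 147, 67 and 161 FPKM in STZ+AOS, against 243, 285 and 185 FPKM in STZ+AOS-FMT. Again no library overlapped (-1.0 ± 0.52 SE, adjusted p 0.79). Cyp11a1, which cleaves the cholesterol side chain, and Hsd17b3, which makes testosterone, are named after their values were seen. Cyp11a1 averaged 47.2 ± 16.4 FPKM in STZ+AOS and 94.1 ± 17.1 FPKM in STZ+AOS-FMT, and Hsd17b3 averaged 21.6 ± 3.83 FPKM in STZ+AOS and 37.5 ± 4.13 FPKM in STZ+AOS-FMT (SD, n = 3 each). Nr5a1, the nuclear receptor that switches on steroid genes in Leydig and Sertoli cells, had close values, with 13.5, 10.6 and 13.0 FPKM in STZ+AOS and 13.2, 13.4 and 12.4 FPKM in STZ+AOS-FMT, and a difference of -0.07 with an interval from -0.48 to 0.35.

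The lowest of the STZ+AOS libraries in these genes was replicate 2. Relative to the control mean, the list medians were -0.696, -1.179 and -0.514 in STZ+AOS, against -0.149, -0.138 and -0.334 in STZ+AOS-FMT. The STZ+control-FMT libraries lay between -0.292 and -0.095, and AOS alone between -0.35 and -0.049. The list's median difference was -0.262 without STZ+AOS replicate 2 and reached -0.469 without STZ+AOS-FMT replicate 3.

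The STZ libraries set much of the error of these genes. Their Leydig list medians were -1.099 in replicate 1 and 0.769 and 0.852 in the others, and Insl3 was 1574 FPKM in replicate 1 and 10967 and 11439 FPKM in the others. With the STZ group left out of the fit, 12 of 25 Leydig cell genes were lower in STZ+AOS at an unadjusted p under 0.05, where the share over all genes was 4.72%, and none was called. With each of the 6 libraries also left out in turn, a setting chosen after seeing the data, that count lay between 11 and 16. The share over all genes in those fits lay between 3.3% and 5.44%, and each called 0 or 1 gene over all genes. Against STZ, 19 Leydig cell genes fell in STZ+AOS and 9 in STZ+AOS-FMT, with list medians of -1.133 and -0.526 against -0.168 and -0.183 over all genes. Over all genes 43.1% were called lower in STZ+AOS and 44.5% in STZ+AOS-FMT, so 9 of 25 is not above that share. Without STZ replicate 1 those counts were 22 in STZ+AOS and 23 in STZ+AOS-FMT, where 48.1% and 49.6% of all genes were called lower. Without STZ replicate 2 they were 12 in STZ+AOS and 8 in STZ+AOS-FMT (37.6% and 38.6% of all genes), and without STZ replicate 3 they were 10 in STZ+AOS and 8 in STZ+AOS-FMT (35.9% and 37.1% of all genes).

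**Figure D2:**
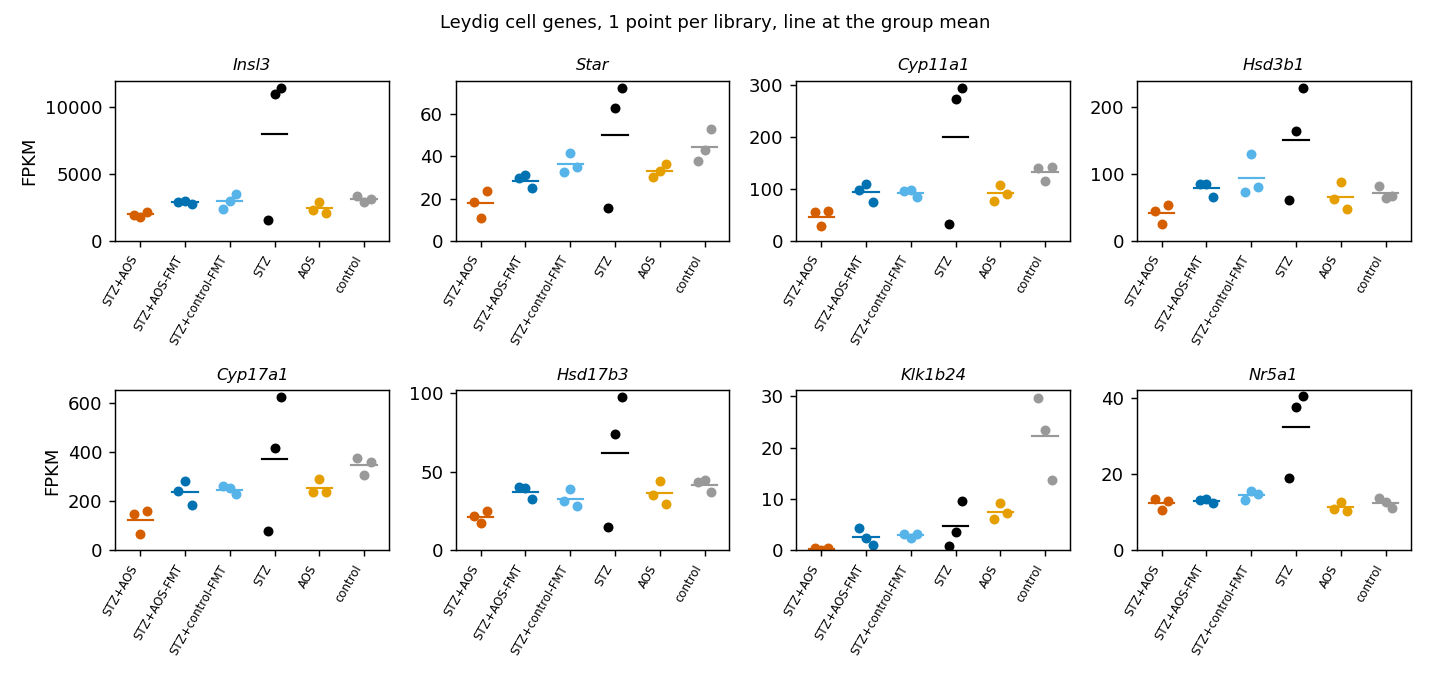
FPKM of 8 Leydig cell genes in each library (points) with the group mean (line), for STZ+AOS, STZ+AOS-FMT, STZ+control-FMT, STZ, AOS and control (n = 3 each); each panel has its own axis from 0. In all panels but that of Nr5a1 the STZ+AOS points lie under the STZ+AOS-FMT points, and the STZ points of Insl3 run from 1574 to 11439.

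The kallikrein gene Klk1b24 gave the widest difference of the Leydig cell list, at -1.38. The other kallikreins listed differed by -1.269 (Klk1b21), -0.885 (Klk1b27) and -0.262 (Klk1b22), beside -1.032 for Cyp11a1. Tissue kallikreins are serine proteases that in mice form a large cluster of near-copies, several of them made in Leydig cells. Their reads can be shared between copies, so each value is uncertain as to its copy. Klk1b24 (chr7:44188236-44192455 in GENCODE M21, GRCm38) measured 0.44, 0 and 0.53 FPKM in STZ+AOS, against 4.42, 2.49 and 1.06 FPKM in STZ+AOS-FMT and 29.6, 23.4 and 13.7 FPKM in control. The 3 groups did not overlap. The difference between STZ+AOS and STZ+AOS-FMT was -1.38 with an interval from -2.40 to -0.36 (unadjusted p 0.0111, limma adjusted p 0.739). Relative to control, Klk1b24 fell by 4.10 in STZ+AOS (adjusted p 0.0041) and differed by -2.71 in STZ+AOS-FMT (adjusted p 0.19). Klk1b21 averaged 0.197 ± 0.176 FPKM in STZ+AOS, 2.14 ± 1.63 FPKM in STZ+AOS-FMT and 21.3 ± 5.28 FPKM in control, and Klk1b27 averaged 0.49 ± 0.052 FPKM in STZ+AOS, 1.91 ± 1.23 FPKM in STZ+AOS-FMT and 16.6 ± 5.85 FPKM in control (SD, n = 3 each; both named after their values were seen). Both fell in STZ+AOS relative to control (limma adjusted p 0.0076 each). They passed the filter only through libraries of other groups. With the filter set on the 6 STZ+AOS and STZ+AOS-FMT libraries, neither was tested. In that setting 4 genes were called in STZ+AOS relative to control, Klk1b24 among them. Klk1b22 was listed at 0 in all 3 STZ+AOS libraries, and measured 0.46, 0.18 and 0 FPKM in STZ+AOS-FMT.

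These 4 genes lie on the plus strand of chromosome 7, and the 120 bases before each start are shown because the genes had low values together. Sequences are from RefSeq, GRCm38.p6, 5′ to 3′, and capitals mark the longest run found in all 4.
Klk1b24, chr7:44188116-44188235: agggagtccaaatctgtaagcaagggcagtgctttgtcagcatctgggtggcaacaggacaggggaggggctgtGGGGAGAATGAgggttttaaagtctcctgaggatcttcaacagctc
Klk1b21, chr7:44102172-44102291: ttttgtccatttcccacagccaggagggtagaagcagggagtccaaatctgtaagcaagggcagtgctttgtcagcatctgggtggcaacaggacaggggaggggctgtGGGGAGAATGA
Klk1b27, chr7:44052170-44052289: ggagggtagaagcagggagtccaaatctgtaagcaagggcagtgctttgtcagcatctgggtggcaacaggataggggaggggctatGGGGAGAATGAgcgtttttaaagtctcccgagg
Klk1b22, chr7:44112553-44112672: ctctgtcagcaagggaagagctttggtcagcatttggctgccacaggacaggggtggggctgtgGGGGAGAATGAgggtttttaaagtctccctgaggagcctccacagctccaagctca

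The windows were 88.4% to 100% identical over the 73 to 108 bases that aligned. The shared run of 11 bases, GGGGAGAATGA on either strand, occurred within 250 bases before the start of 17 of 27025 genes in the promoter table (0.063%), 9 of them named Klk. Of all genes in that table, 27 are named Klk. The 4 genes shown hold the run because it was taken from them, so the counts are no test of it. The word bound by NR5A1, AAGGTCA on either strand, was found before the start of 1 of 19 Leydig list genes with a promoter entry (5.263%) and of 438 of 11076 tested genes (3.954%). A match is a description of letters and not of binding.

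**Figure D3:**
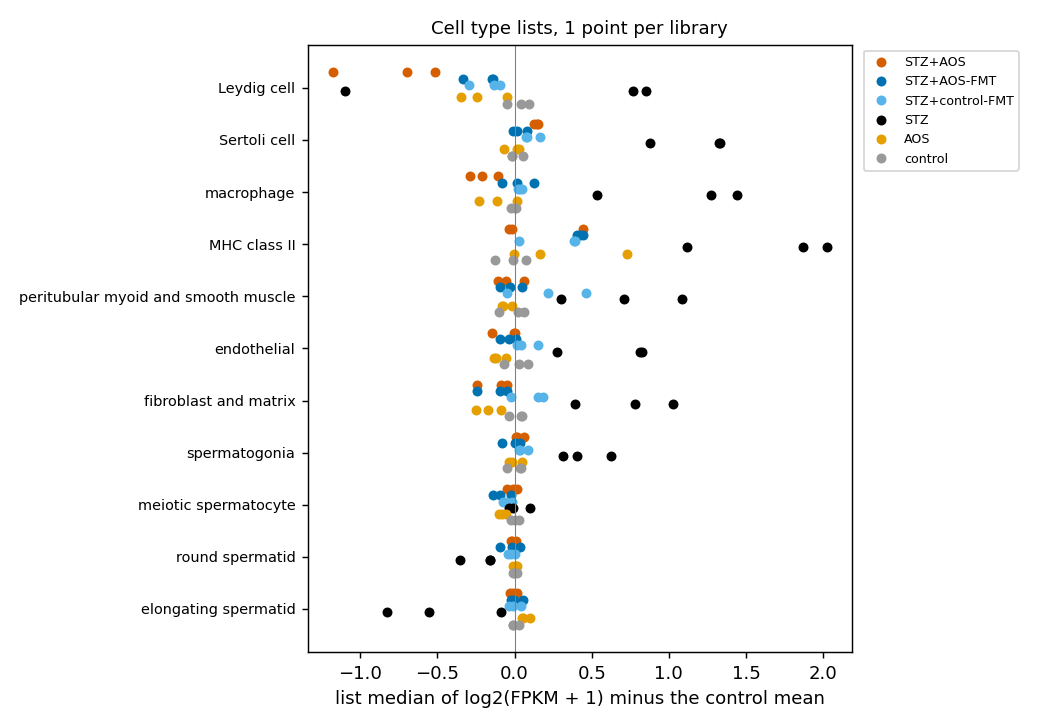
Median over each cell type list of log2(FPKM + 1) minus the control mean, 1 point per library, for 11 lists and 6 groups. The STZ+AOS points of the Leydig cell list (-1.179 to -0.514) lie left of the STZ+AOS-FMT points (-0.334 to -0.138). The STZ+AOS points of the Sertoli cell list (0.129 to 0.15) lie right of the STZ+AOS-FMT points (-0.009 to 0.078). The germ cell list points of these 2 groups lie between -0.139 and 0.061.

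Sertoli cell genes leaned the other way. Of 28 listed, 27 passed the filter, 19 were higher and 8 lower in STZ+AOS, and the median difference was 0.089 against 0.016 over all genes. None was called. The groups did not overlap for 10 with STZ+AOS higher (8.67% over all genes) and for 1, Kitl, named after its values were seen, with STZ+AOS lower (6.25% over all genes). The median was 0.059 without STZ+AOS replicate 2. At an unadjusted p under 0.05 there were 7 higher genes, where the share over all genes was 4.09%, and 3 without STZ+AOS replicate 2. Wt1, the transcription factor that keeps Sertoli cell identity, had 12.5, 12.4 and 12.2 FPKM in STZ+AOS, against 10.4, 10.8 and 10.3 FPKM in STZ+AOS-FMT. The libraries were tight within each group and apart between them (0.21 ± 0.06 SE, limma adjusted p 0.614). Cst12, a cystatin-type protease inhibitor, had 75.2, 81.4 and 80.4 FPKM in STZ+AOS, against 66.9, 50.1 and 67.7 FPKM in STZ+AOS-FMT (0.37 ± 0.12 SE, adjusted p 0.649). Clu, a secreted chaperone abundant in Sertoli cells, had 560, 555 and 536 FPKM in STZ+AOS, against 492, 485 and 493 FPKM in STZ+AOS-FMT, without overlap (0.17 ± 0.08 SE, adjusted p 0.763). Sox9, a Sertoli cell transcription factor, had close means of 3.57 FPKM in STZ+AOS and 3.65 FPKM in STZ+AOS-FMT. Relative to STZ, 26 Sertoli cell genes fell in STZ+AOS and all 27 tested fell in STZ+AOS-FMT, with list medians of -1.115 and -1.132, where 43.1% and 44.5% of all genes were called lower. After median centring the counts were 24 in each, where 19.9% of all genes in STZ+AOS and 19.4% in STZ+AOS-FMT were called lower. Clu illustrates the scale, at 1409 ± 177 FPKM in STZ (SD, n = 3).

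Germ cell genes differed little between the groups, and none was called. In the meiotic list 29 of 37 tested genes were higher in STZ+AOS and 8 lower, with a median of 0.055 and 5 higher at an unadjusted p under 0.05 (4.09% over all genes). The median was 0.097 without STZ+AOS-FMT replicate 1, and the count was 3 without STZ+AOS replicate 3 and without STZ+AOS-FMT replicate 2 or 3. Sycp3, a lateral element protein of the chromosome axis in meiosis, had 190, 200 and 195 FPKM in STZ+AOS, against 187, 154 and 171 FPKM in STZ+AOS-FMT (0.20 ± 0.09 SE, limma adjusted p 0.763). Sycp2, its partner in the axis, averaged 87.1 FPKM in STZ+AOS and 76 FPKM in STZ+AOS-FMT, and Mybl1, a transcription factor of pachytene cells, averaged 18.2 FPKM in STZ+AOS and 16.1 FPKM in STZ+AOS-FMT, both with overlap. The spermatogonial list had a median of 0.023 over 16 tested genes. Id4, a helix-loop-helix factor of spermatogonial stem cells, had 21.1, 21.7 and 19.2 FPKM in STZ+AOS, against 17.03, 17.6 and 16.5 FPKM in STZ+AOS-FMT, without overlap (0.26, adjusted p 0.712). Stra8, which licenses entry into meiosis, and Zbtb16, a factor of spermatogonial stem cells, overlapped between groups (0.18 and -0.02).

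Spermatid genes were nearly level. The round spermatid list had a median of 0.024 over 28 genes, which was -0.018 without STZ+AOS-FMT replicate 2, with 0 genes at an unadjusted p under 0.05 in limma, and Acrv1, an acrosome protein, differed by 0.10 with overlap. In the elongating list 23 of 29 genes were lower in STZ+AOS and the median was -0.038. Tekt1, a tektin of the sperm tail, leaned the other way, with means of 284 FPKM in STZ+AOS and 240 FPKM in STZ+AOS-FMT and no overlap. Prm1, which packs sperm DNA, had 13764, 12530 and 13239 FPKM in STZ+AOS, against 13613, 13667 and 15122 FPKM in STZ+AOS-FMT. Prm2, its partner, had 11382, 9939 and 11079 FPKM in STZ+AOS, against 10555, 14831 and 12764 FPKM in STZ+AOS-FMT. Both overlapped, with differences of -0.10 and -0.22 and intervals from -0.48 to 0.28 and from -0.62 to 0.17. Tnp1, a transition protein, differed by -0.11. Prm1 and Tnp1 had the opposite sign or no difference after quantile normalization (0.053 and 0). Relative to STZ, 25 of 29 elongating spermatid genes rose in STZ+AOS and 24 in STZ+AOS-FMT, with list medians of 0.507 and 0.456, where 11.9% and 12% of all genes were called higher. Of 28 round spermatid genes, 21 rose in STZ+AOS and 17 in STZ+AOS-FMT, with list medians of 0.216 and 0.205, against the same shares over all genes. These medians stayed positive after quantile normalization and after centring. After quantile normalization the elongating counts were 15 in STZ+AOS and 16 in STZ+AOS-FMT and the round spermatid counts 14 in STZ+AOS and 13 in STZ+AOS-FMT, where 29.9% and 29.8% of all genes were called higher. Without STZ replicate 3 the round spermatid counts were 9 in each group, where 7.82% of all genes in STZ+AOS and 8.14% in STZ+AOS-FMT were called higher.

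Macrophage and antigen presentation genes were lower in STZ+AOS on median, and none was called. Of 19 tested macrophage genes 14 were lower, 5 without overlap (6.25% over all genes), with a median of -0.23. The median was -0.122 without STZ+AOS-FMT replicate 3, -0.141 without STZ+AOS replicate 3 and -0.148 without STZ+AOS replicate 2. Lyz1, a lysozyme with the smallest p of all lower genes, had 0.79, 0.79 and 0.68 FPKM in STZ+AOS, against 1.69, 1.67 and 1.75 FPKM in STZ+AOS-FMT. The groups were far apart relative to their spread (-0.63 ± 0.11 SE, unadjusted p 4.03e-05, limma adjusted p 0.336). Its near copy Lyz2, the lysozyme of macrophages, had 21, 13.95 and 14.1 FPKM in STZ+AOS, against 20.1, 21.02 and 23.9 FPKM in STZ+AOS-FMT, with overlap, and reads may be shared between the copies. Adgre1, the F4/80 antigen, averaged 0.973 FPKM in STZ+AOS and 1.34 FPKM in STZ+AOS-FMT. All 7 tested MHC class II genes were lower in STZ+AOS, with a median of -0.302, or -0.117 without STZ+AOS replicate 3. Relative to control, the list medians were 0.446, -0.017 and -0.038 in STZ+AOS, against 0.407, 0.443 and 0.421 in STZ+AOS-FMT, so STZ+AOS replicate 1 lay above every STZ+AOS-FMT library. H2-Ab1, a class II beta chain, had 12.7, 7.94 and 7.31 FPKM in STZ+AOS, against 13.1, 14.8 and 12.8 FPKM in STZ+AOS-FMT (-0.53 ± 0.25 SE, adjusted p 0.763). Cd74, the class II invariant chain, averaged 12.4 ± 2.72 FPKM in STZ+AOS and 16.3 ± 1.13 FPKM in STZ+AOS-FMT, with overlap. Relative to STZ, 17 of 19 macrophage genes fell in STZ+AOS (43.1% of all genes) and 15 in STZ+AOS-FMT (44.5% of all genes). After quantile normalization 14 fell in STZ+AOS (21.9% of all genes) and 13 in STZ+AOS-FMT (22.6% of all genes), and after centring the counts were again 14 in STZ+AOS and 13 in STZ+AOS-FMT.

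**Figure D4:**
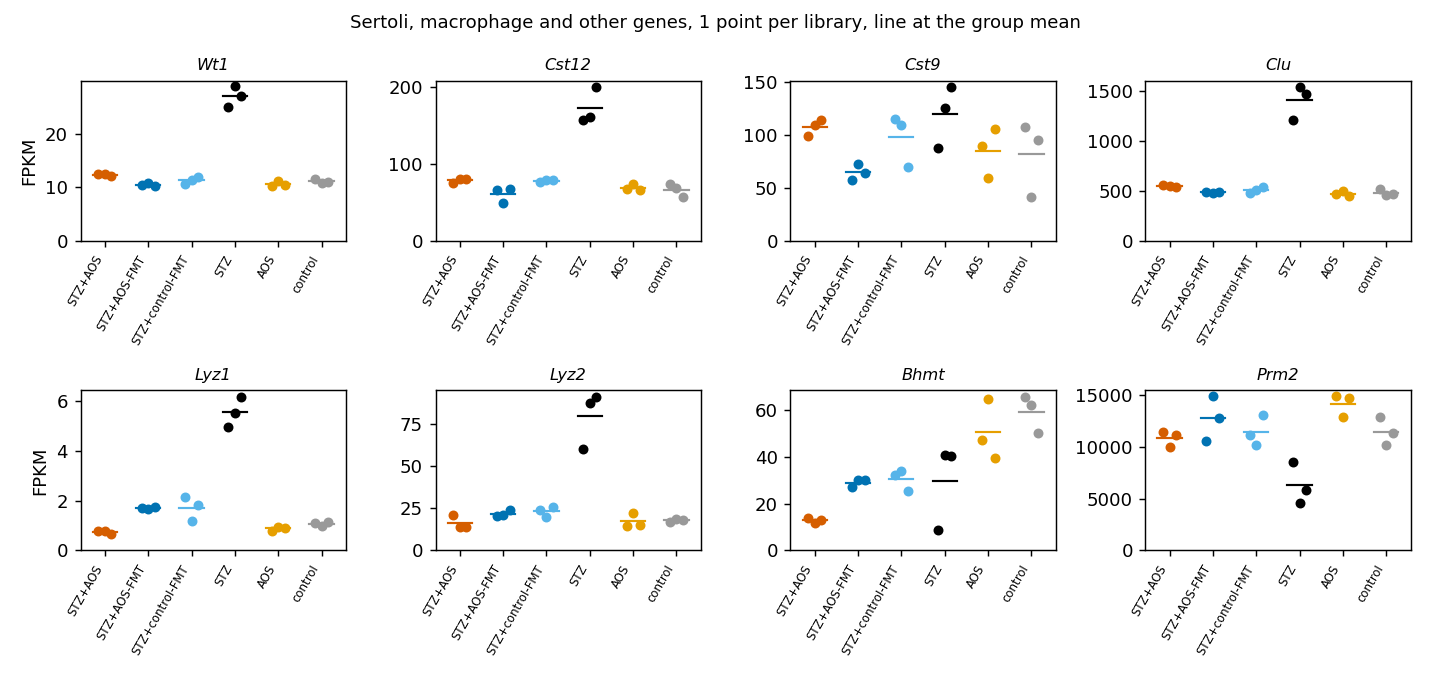
FPKM of 8 Sertoli cell, macrophage, metabolic and spermatid genes in each library (points) with the group mean (line), for 6 groups (n = 3 each); each panel has its own axis from 0. STZ+AOS lies above STZ+AOS-FMT for Wt1, Cst12, Cst9 and Clu and under it for Lyz1 and Bhmt, while Lyz2 and Prm2 overlap.

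Metabolic lists held single genes that stood apart, and none was called. Bhmt, which remethylates homocysteine from betaine, had 13.8, 11.8 and 13.1 FPKM in STZ+AOS, against 26.9, 29.9 and 29.9 FPKM in STZ+AOS-FMT, and 59.1 ± 8.1 FPKM in control (SD, n = 3). The STZ+AOS libraries lay under all STZ+AOS-FMT and control libraries (-1.11 ± 0.38 SE, unadjusted p 0.0105, limma adjusted p 0.713). Without STZ in the fit its adjusted p was 0.0677, and with the 2 groups alone in the fit it was 0.00321. STZ libraries averaged 29.8 ± 18.2 FPKM. Aldh1a1, which makes retinoic acid, had 130, 128 and 136 FPKM in STZ+AOS, against 198, 191 and 189 FPKM in STZ+AOS-FMT (-0.56 ± 0.28 SE, adjusted p 0.79, and 0.00686 with the 2 groups alone in the fit). Sardh, a mitochondrial enzyme downstream of betaine, averaged 1.06 FPKM in STZ+AOS and 2.49 FPKM in STZ+AOS-FMT, without overlap. Their lists did not lean as these genes did. Of 21 polyamine, betaine and one-carbon genes 10 were higher and 11 lower in STZ+AOS (median -0.034). Of 17 retinoic acid genes 6 were higher and 11 lower (median -0.021). At an unadjusted p under 0.05 in limma, 1 of those 17 was higher (4.09% over all genes) and 0 were lower (2.4% over all genes).

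Several fatty acid genes did not overlap between the groups, and none was called. In the list of lipogenesis and fatty acid oxidation, 11 of 27 genes did not overlap with STZ+AOS lower (6.25% over all genes) and 2 with STZ+AOS higher (8.67% over all genes), and the list median was -0.035, or -0.056 without STZ+AOS-FMT replicate 3. Cd36, a fatty acid transporter, had 3.98, 5.44 and 4.56 FPKM in STZ+AOS, against 8.98, 10.8 and 7.92 FPKM in STZ+AOS-FMT (-0.85 ± 0.31 SE, limma adjusted p 0.744). Scd1, a stearoyl desaturase, averaged 2.18 ± 0.1 FPKM in STZ+AOS and 4.67 ± 1.85 FPKM in STZ+AOS-FMT, without overlap. Cholesterol synthesis and uptake genes had a median of -0.105 over 23 tested, with 4 not overlapping and lower in STZ+AOS (6.25% over all genes), and Lss, which closes the sterol rings, averaged 2.64 FPKM in STZ+AOS and 3.34 FPKM in STZ+AOS-FMT. Glycolysis genes had a median of -0.021 over 29. In 7 of them the groups did not overlap with STZ+AOS lower (6.25% over all genes), and in 1 with STZ+AOS higher (8.67% over all genes). Eno1 and Aldoa, both glycolytic enzymes, did not overlap, with differences of -0.14 and -0.13. Antioxidant genes had a median of -0.021 over 33, with 6 not overlapping and lower in STZ+AOS and 2 not overlapping and higher (6.25% and 8.67% over all genes). Gstm1, a glutathione transferase, averaged 304 FPKM in STZ+AOS and 421 FPKM in STZ+AOS-FMT, without overlap.

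Some stress and acute phase genes had higher values in STZ+AOS, and none was called. Serpina3n, an acute phase protease inhibitor, had 13.1, 10.9 and 3.27 FPKM in STZ+AOS, against 2.37, 2.89 and 3.25 FPKM in STZ+AOS-FMT. The third STZ+AOS library lay at the edge of the other group (1.23 ± 0.36 SE, limma adjusted p 0.629), while STZ libraries averaged 54.8 ± 25.9 FPKM. Timp1, an inhibitor of matrix proteases, had 7.55, 2.89 and 2.42 FPKM in STZ+AOS, against 1.92, 2.11 and 1.81 FPKM in STZ+AOS-FMT, with the first library high. Hspb1, a small heat shock protein, averaged 32.6 ± 4.96 FPKM in STZ+AOS and 26 ± 2.35 FPKM in STZ+AOS-FMT, with overlap. Mdm2, which marks p53 for destruction, had 69.04, 75.8 and 68.1 FPKM in STZ+AOS, against 61.2, 61.0 and 63.1 FPKM in STZ+AOS-FMT, without overlap (0.20 ± 0.05 SE, adjusted p 0.478). Ciart, a circadian repressor, had 5.6, 7.35 and 6.09 FPKM in STZ+AOS, against 4.84, 4.55 and 4.56 FPKM in STZ+AOS-FMT (0.37 ± 0.10 SE, adjusted p 0.553). Klf6, an immediate early zinc finger factor, averaged 2.72 FPKM in STZ+AOS and 1.93 FPKM in STZ+AOS-FMT, and Cdkn1a, the cell cycle inhibitor p21, averaged 5.78 FPKM in STZ+AOS and 4.48 FPKM in STZ+AOS-FMT, both without overlap. Igfbp3, which binds insulin-like growth factors in serum, averaged 1.99 FPKM in STZ+AOS and 0.833 FPKM in STZ+AOS-FMT, without overlap (0.67, adjusted p 0.744). The immediate early and heat shock list had a median of 0.094 over 21 genes, the NF-kB and acute phase list 0.088 over 14, and the p53 list 0.039 over 22. Without STZ+AOS replicate 1 the NF-kB and acute phase median was -0.045 and the p53 median -0.05. Without STZ+AOS replicate 3 the immediate early and heat shock median was 0.196. Of the 14 NF-kB and acute phase genes, 2, among them Lcn2, did not overlap with STZ+AOS lower (6.25% over all genes). Another 2 did not overlap with STZ+AOS higher (8.67% over all genes). Medians were close to that of all genes in the lists of ribosomal proteins (0.006), nuclear genes of oxidative phosphorylation (-0.01), insulin and IGF signalling (-0.03), interferon response (-0.013), unfolded protein response (0.02) and sperm motility (0.046).

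The remaining groups place these levels. Insl3 averaged 2970 FPKM in STZ+control-FMT, 7993 FPKM in STZ, 2465 FPKM in AOS and 3144 FPKM in control, and Star averaged 36.3 FPKM in STZ+control-FMT, 50.2 FPKM in STZ, 33.2 FPKM in AOS and 44.5 FPKM in control. Cyp17a1 averaged 248 FPKM in STZ+control-FMT, 374 FPKM in STZ, 255 FPKM in AOS and 348 FPKM in control. For each of these 3 Leydig cell genes the STZ+AOS mean was under all of those, and for Hsd3b1, at 94.8 FPKM in STZ+control-FMT, 152 FPKM in STZ, 66.1 FPKM in AOS and 71.2 FPKM in control, it was too. Klk1b24 averaged 2.93 FPKM in STZ+control-FMT, 4.68 FPKM in STZ, 7.5 FPKM in AOS and 22.3 FPKM in control, so every treated group had a mean under that of control.

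Germ cell genes were not level over the groups, and for Prm1 and Prm2 the AOS mean was above that of control. Sycp3 averaged 168 FPKM in STZ+control-FMT, 195 FPKM in STZ, 178 FPKM in AOS and 190 FPKM in control, and Acrv1 averaged 271 FPKM in STZ+control-FMT, 259 FPKM in STZ, 282 FPKM in AOS and 299 FPKM in control. Prm1 averaged 13787 FPKM in STZ+control-FMT, 8561 FPKM in STZ, 15075 FPKM in AOS and 12796 FPKM in control, and Prm2 averaged 11427 FPKM in STZ+control-FMT, 6315 FPKM in STZ, 14139 FPKM in AOS and 11442 FPKM in control. STZ had the lowest mean of both protamines. It had the highest mean of the Sertoli cell gene Sox9, at 9.3 FPKM against 2.9 FPKM in control, and of the macrophage genes Lyz2, at 79.4 FPKM against 17.9 FPKM in control, and Cd74, at 80 FPKM against 9.72 FPKM in control.

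The genes with the smallest p were not of 1 kind. Among the 10 higher in STZ+AOS, Iglon5 had 2.59, 3.86 and 3.3 FPKM in STZ+AOS, against 1.85, 1.89 and 1.73 FPKM in STZ+AOS-FMT (0.58 ± 0.10 SE, unadjusted p 4.74e-05, limma adjusted p 0.336). Fam174b, a membrane protein, had 7.17, 6.71 and 6.72 FPKM in STZ+AOS, against 4.62, 5.21 and 4.76 FPKM in STZ+AOS-FMT. Bex4, a small brain-expressed X-linked family protein, averaged 28.7 FPKM in STZ+AOS and 22.3 FPKM in STZ+AOS-FMT, and Emb, a basigin-related adhesion protein, averaged 7.79 FPKM in STZ+AOS and 5.34 FPKM in STZ+AOS-FMT. Thoc7, a subunit of the mRNA export complex THO, averaged 82.2 FPKM in STZ+AOS and 67.3 FPKM in STZ+AOS-FMT, and Sectm1a averaged 4.4 FPKM in STZ+AOS and 2.79 FPKM in STZ+AOS-FMT. Gm20929, a predicted gene on chromosome Y, had 22.4, 15.4 and 16.2 FPKM in STZ+AOS, against 10.7, 3.53 and 6.45 FPKM in STZ+AOS-FMT. Samt1, an X-linked testis membrane protein, averaged 20.4 FPKM in STZ+AOS and 14 FPKM in STZ+AOS-FMT, and 4921511M17Rik carried identical values in each library, so both rows count the same reads. LOC108168584 had 1.4, 1.76 and 1.8 FPKM in STZ+AOS and was listed at 0 in all 3 STZ+AOS-FMT libraries.

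Among the 10 lower ones beside Lyz1, the most abundant was Smim24, a small membrane protein. It had 748, 615 and 698 FPKM in STZ+AOS, against 868, 1045 and 951 FPKM in STZ+AOS-FMT, without overlap (-0.47 ± 0.09 SE, unadjusted p 9.43e-05, limma adjusted p 0.413). Dnmt3l, the cofactor of DNA methylation in germ cells, had 4.47, 4.72 and 6.18 FPKM in STZ+AOS, against 9.48, 8.0 and 8.96 FPKM in STZ+AOS-FMT (-0.69 ± 0.16 SE, adjusted p 0.478). Trim54, a muscle ring finger protein, averaged 2.6 FPKM in STZ+AOS and 4.42 FPKM in STZ+AOS-FMT. Six2, a homeobox factor, averaged 2.96 FPKM in STZ+AOS and 4.88 FPKM in STZ+AOS-FMT. Prkar2b, a regulatory subunit of protein kinase A, averaged 3.48 FPKM in STZ+AOS and 4.94 FPKM in STZ+AOS-FMT. Nrep averaged 1.1 FPKM in STZ+AOS and 1.71 FPKM in STZ+AOS-FMT, Trp53i11 averaged 11.4 FPKM in STZ+AOS and 14.4 FPKM in STZ+AOS-FMT, Plekhj1 averaged 20.8 FPKM in STZ+AOS and 26.1 FPKM in STZ+AOS-FMT, and the olfactory receptor gene Olfr701 averaged 10.6 FPKM in STZ+AOS and 13.5 FPKM in STZ+AOS-FMT. All 20 genes were apart in all 6 libraries, which adds nothing to their p, since they were picked by it. The same held for 2113 of 14164 genes tested (8.67% with STZ+AOS higher and 6.25% with STZ+AOS lower).

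Markers of tissues around the testis and of blood were mixed, and none was called. The groups did not overlap for the globins Hbb-bs and Hbb-bt, for Adipoq and for Lcn2, with STZ+AOS lower, and for Cst8, with STZ+AOS higher (Hbb-bt was named after its values were seen). That was 2 lower of 4 tested red cell genes, 1 lower of 9 fat cell genes, and 1 lower and 1 higher of 7 epididymal genes. Over all genes the shares were 6.25% lower and 8.67% higher. Summed over all 10 fat cell markers, of which 9 were tested, values ran from 23 to 33.9 FPKM in STZ+AOS libraries and from 23.7 to 86.5 FPKM in STZ+AOS-FMT libraries. Adipoq, the fat hormone, averaged 9.34 FPKM in STZ+AOS and 11.4 FPKM in STZ+AOS-FMT. The highest sum was in STZ+AOS-FMT replicate 3, and its part in the lipid gene values was not tested. Of the 9 tested fat cell genes, 8 were lower and 1 was higher in STZ+AOS. Their median was -0.365, or -0.207 without STZ+AOS-FMT replicate 3. Summed over all 16 epididymal markers, of which 7 were tested, values ran from 496 to 624 FPKM in STZ+AOS and from 620 to 686 FPKM in STZ+AOS-FMT. Cst8 and Lcn2 made up most of these sums and went opposite ways. Cst8, also expressed by germ cells, averaged 294 FPKM in STZ+AOS and 262 FPKM in STZ+AOS-FMT. Globin genes went opposite ways, with Hba-a1 at 153, 192 and 115 FPKM in STZ+AOS and 71.1, 144 and 96.5 FPKM in STZ+AOS-FMT, and Hbb-bs at 0, 2.89 and 0.14 FPKM in STZ+AOS and 8.58, 3.13 and 20.3 FPKM in STZ+AOS-FMT. The endothelial, peritubular and fibroblast lists had medians of 0, -0.014 and 0.014. Lcn2, a lipocalin of neutrophils and epididymis, averaged 213 FPKM in STZ+AOS and 340 FPKM in STZ+AOS-FMT, without overlap (-0.70, limma adjusted p 0.884). Of 12 lymphocyte markers 1 passed the filter, Cd3d, a subunit of the T cell receptor complex, at -0.08.

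**Figure D5:**
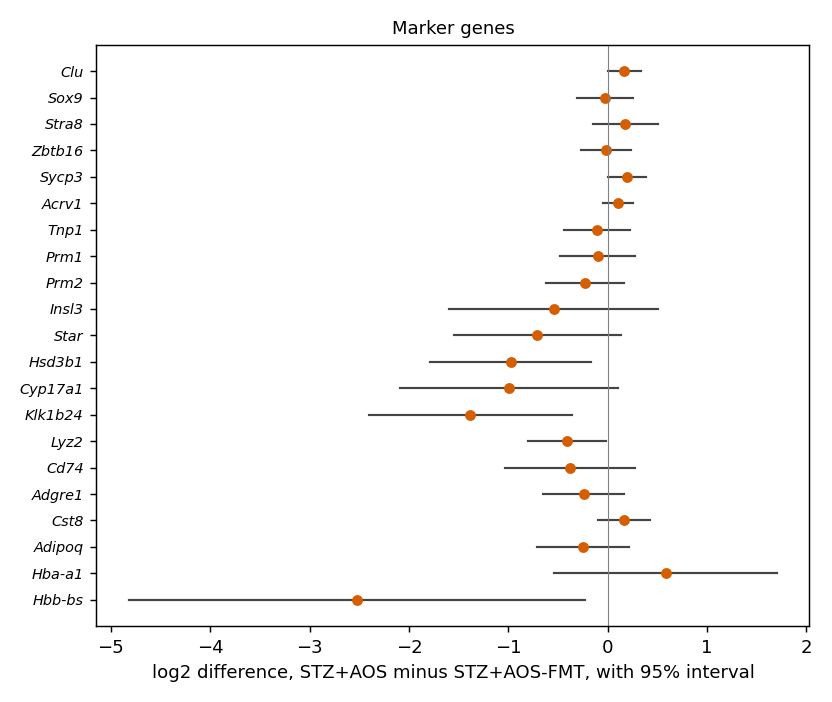
Log2 difference of log2(FPKM + 1), STZ+AOS minus STZ+AOS-FMT, with its 95% interval from limma for 21 marker genes of Sertoli, germ, Leydig, immune, epididymal, fat and red cells (n = 3 per group). Intervals of Klk1b24 (-2.40 to -0.36), Hsd3b1 (-1.79 to -0.17), Lyz2 and Hbb-bs lie left of 0, those of Clu and Sycp3 lie just right of it, and the other 15 hold it.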

How the data were processed

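RNA sequencing of whole mouse testis gave 1 deposited table of 20985 genes by 18 libraries. The authors' values were taken as FPKM, from the stepped, length-dependent spacing of low values; RPKM cannot be told apart. The submitters' processing notes name Bowtie 0.12.2 and mm10 without a role, and how reads were counted, annotated and scaled is not stated there. Libraries were grouped by treatment label. limma 3.58.1 in R 4.3.3 was fitted with trend to log2(FPKM + 1), pseudocount 1, for 14164 genes at 1 or more in 3 or more of 18 libraries, all 6 groups in 1 model (12 residual degrees of freedom); tests were two-sided with Benjamini-Hochberg adjustment, threshold 0.05. Of the table's symbols, 20249 (96.5%) matched GENCODE M21; 39 damaged symbols were kept and not named. The fitting code was tested on simulated data. Named genes were the 10 smallest p in each direction (fewer than 10 genes being called, mean at least 1), up to 2 smallest p per list, and a fixed set of markers. The members and the 32 gene lists were chosen with earlier results of these data known. Alternatives were another scaling, pseudocount, filter, set of libraries, replicate block, array weights and leaving out each library.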

Additional observations from a re-analysis of the deposited data

How the results depend on the processing

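Between STZ+AOS and STZ+AOS-FMT, 0 genes were called in each of the 15 settings tried but 1, the fit with the 2 groups alone, which called 5. Leaving out STZ and 1 library together, a setting added after seeing the data, called 0 or 1 gene. Genes at an unadjusted p under 0.05 numbered 1610 without STZ in the fit and 558 to 1012 with a library left out. Against STZ, the fits of 2 groups called 4944 genes in STZ+AOS and 5225 in STZ+AOS-FMT. STZ+AOS against control called 12 after centring, 76 with 2 groups, 164 without STZ, 135 with array weights, and 0 to 7 with a library left out. STZ+AOS-FMT against control called 1 with no filter on low values, 6 without STZ, 4 with array weights, and 0 to 1 with a library left out. STZ+AOS against STZ+control-FMT called 2 with no filter, 33 with 2 groups, 93 without STZ, 0 with the replicate block, 21 with array weights, and 0 to 3 with a library left out. The cause of these shifts was not tested, beyond the wide STZ spread given above.

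Of 117 genes followed, 6 changed sign or, for Tnp1, came to 0 in at least 1 setting: Myl9 (0.04) and Nr5a1 (0.03) without STZ+AOS replicate 2, Prm1 (0.053) and Tnp1 (0) with quantile normalization, Sox9 with array weights (0.011) or without STZ+AOS-FMT replicate 2 (0.057), and Zbtb16 without STZ+AOS replicate 1 (0.013) or 3 (0.058) or STZ+AOS-FMT replicate 1 (0.009). With a library of either group left out, the values ran from -0.231 to 0.04 for Myl9, -0.129 to 0.03 for Nr5a1, -0.064 to 0.057 for Sox9 and -0.128 to 0.058 for Zbtb16. Replicate numbers did not pair the samples: the deviations of same-numbered STZ+AOS and STZ+AOS-FMT libraries correlated at -0.094, -0.045 and -0.151. With replicate number as a block, 0 genes were called between them (921 at an unadjusted p under 0.05), 8 for STZ+AOS against control, 7697 for STZ+AOS against STZ and 7921 for STZ+AOS-FMT against STZ. Unknown read depth and 3 libraries per group limit all values.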

Other observations

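Fitted with the 2 groups alone, 5 genes were called between STZ+AOS and STZ+AOS-FMT: Bhmt and Aldh1a1, described above, and LOC108168584, Btbd35f4 and Btbd35f3, which are named after their values were seen. Btbd35f4 and Btbd35f3 are X-linked members of a multicopy family, so reads may be shared between copies. Btbd35f4 had 2.91, 3.24 and 1.97 FPKM in STZ+AOS, against 0.2, 0 and 0 FPKM in STZ+AOS-FMT. Btbd35f3 had 0, 0.01 and 0 FPKM in STZ+AOS, against 1.57, 2.55 and 1.52 FPKM in STZ+AOS-FMT. The 2 rows thus ran in opposite directions. Both varied within control: Btbd35f4 averaged 1.21 ± 2.03 FPKM and Btbd35f3 averaged 1.28 ± 1.24 FPKM there (SD, n = 3), a spread about as wide as the values. In the fit of all groups neither was called (limma adjusted p 0.649 for Btbd35f4 and 0.63 for Btbd35f3).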
